A study of Mus musculus with 12 samples.

Results

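Apolipoproteins are the protein parts of the lipid particles that carry triglyceride and cholesterol in plasma, and the liver makes most of them. The genes described here are 9 apolipoprotein genes and *Mttp*, 10 of the 16346 genes in the deposited table, taken by name: *Apob* and *Mttp*, the pair that starts a very-low-density lipoprotein (VLDL) particle, and *Apoa1*, *Apoa2*, *Apoa4*, *Apoa5*, *Apoc1*, *Apoc3*, *Apoe* and *Apom*, whose products sit on VLDL or on high-density lipoprotein (HDL). All 10 passed the filter on low values, a mean of at least 10 normalized counts, which 12366 genes passed in all. Liver RNA was sequenced from 12-week-old C57BL6J mice, control *Med13*fl/fl animals or animals labelled MED13-LKO, in which Cre under the albumin promoter is meant to remove *Med13* from hepatocytes. Each genotype was sampled after a 16 h overnight fast, or after 4 h of refeeding with normal chow and water holding 30% sucrose or 30% fructose, with 2 mice in each of the 6 groups. Both genotypes carry the floxed allele, and mice refed with plain water are not among the libraries analysed here.

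In the rough endoplasmic reticulum of the hepatocyte, the microsomal triglyceride transfer protein encoded by *Mttp* loads lipid onto apolipoprotein B while that long protein is being made, and without lipid the protein is degraded. The finished VLDL particle then gains or exchanges small apolipoproteins of the A, C and E classes, which set how fast lipoprotein lipase empties it and how receptors clear what is left. MED13 ties the kinase module to the Mediator complex, a bridge between transcription factors and RNA polymerase II, and the series asks how its loss alters the response of liver genes to feeding.

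*Med13* itself ran from 578 to 796 normalized counts in control libraries and from 646 to 1055 in those labelled MED13-LKO, with overlap (log2 fold change 0.22 ± 0.11 (SE), adjusted p = 0.20, mean of diets). Its RNA level does not follow the labels, so the second genotype is called the libraries labelled MED13-LKO throughout. Gene-level RNA does not measure the protein, and the authors report that MED13 and MED12 protein was almost entirely lost from MED13-LKO liver. An adjusted p is that of limma over all genes tested, with Benjamini-Hochberg adjustment and a threshold of 0.05. The read depth is not known from the normalized values. These summed to between 21062211 and 24152885 per control library and to between 17309215 and 18738563 per library labelled MED13-LKO, and the 10 genes held 3.78% to 4.24% and 4.01% to 4.44% of those sums. Hepatocyte markers summed to 2165325 to 2928444 in control libraries and to 1635373 to 2007423 in the others. Most of that sum is *Alb*, at 1376900 to 2411620 over the 12 libraries. Of the 6 markers, 5 were lower after adjustment over the diets (2 of 6 when the libraries are scaled to equal sums). Kupffer cell markers ran from 3296 to 4687 and from 4247 to 5690.3, with 1 of 6 higher (6 with equal sums), and sinusoidal endothelial markers from 3464 to 4115 and from 3956 to 5485, with 3 of 6 higher (6 with equal sums). Stellate cell markers had 2 of 6 lower, cholangiocyte markers 1 of 4 lower and leukocyte markers 1 of 2 higher, and the adipocyte marker *Adipoq* stayed at or below 22.5. Of 6 enterocyte markers *Fabp2* and *Vil1* were listed. *Vil1* stayed at or below 8.13 in every library and was 0 in 3 of them, and *Fabp2* ran from 754 to 1138 and from 1023 to 2145. Of all genes tested, 12.1% were called higher and 13.2% lower over the diets, and with equal sums most were called higher. In whole liver, fewer cells of a type and less RNA per cell cannot be told apart, and the part of cell makeup in the results below was not tested.

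The stretches in front of the start sites of 3 of the genes are shown because the genotypes differed in *Apoa2* under every diet, whereas *Apob* and *Apoa5* passed no comparison between genotypes as deposited. They come from RefSeq on GRCm38.p6, whose table held a window for 8 of the 10 genes (*Apoc1* and *Apoc3* had none), and each is printed 5′ to 3′ on the plus strand. Those of *Apoa2* and *Apob* run up to the first base that GENCODE annotates as exon, and that of *Apoa5* up to its RefSeq start site, which lies before the GENCODE start. The *Apoa2* stretch covers chr1:171224804-171225053, the *Apob* stretch chr12:7977427-7977647 and the *Apoa5* stretch chr9:46268358-46268607. Capitals mark matches to the short motifs named below, and none of the capital stretches overlap.
Apoa2: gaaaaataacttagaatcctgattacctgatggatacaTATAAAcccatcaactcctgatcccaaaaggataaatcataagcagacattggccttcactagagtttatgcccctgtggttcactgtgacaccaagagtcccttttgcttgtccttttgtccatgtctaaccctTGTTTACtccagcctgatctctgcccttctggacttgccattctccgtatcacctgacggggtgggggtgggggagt
Apob: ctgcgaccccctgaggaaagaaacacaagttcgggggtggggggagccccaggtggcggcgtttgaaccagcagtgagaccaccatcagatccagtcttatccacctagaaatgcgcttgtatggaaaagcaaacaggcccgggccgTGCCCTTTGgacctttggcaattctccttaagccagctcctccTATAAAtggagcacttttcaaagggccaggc
Apoa5: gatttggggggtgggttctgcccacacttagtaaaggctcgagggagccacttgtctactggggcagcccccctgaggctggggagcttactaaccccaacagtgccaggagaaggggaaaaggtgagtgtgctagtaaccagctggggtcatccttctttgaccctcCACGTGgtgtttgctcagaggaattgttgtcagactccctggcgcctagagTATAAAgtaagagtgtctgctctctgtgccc

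In these stretches the *Apoa2* capitals are the letters TATAAA and a FOXO-type motif (GTAAACA, on the minus strand as TGTTTAC). The *Apob* capitals are an HNF4-type motif (CAAAGNNCA, on the minus strand) and a TATA box (TATAAA). Those of *Apoa5* are an E-box (CACGTG) and a TATA box. TATAAA lies near the 3′ end of the *Apob* and *Apoa5* stretches. In *Apoa2* it lies near the 5′ end, far from the start site, and is a match of letters only. On either strand of the 32851 windows of 300 bases in the table, TATAAA was found in 13.6%, GTAAACA in 3.65%, CAAAGNNCA in 6.36% and CACGTG in 7.15%. A direct repeat of nuclear receptor half-sites (GGTCA and GGTC separated by any 2 bases) was found in 0.393% of windows and, among the members, in the window of *Apom* (a motif written down after these windows had been read). The half-site itself (AGGTCA) was found in 16.3%, an SREBP-type motif (TCACNCCAC) in 1.2% and an HNF1-type motif (GTTAAT and ATT separated by any 1 base) in 0.399%, and none of these 3 lay in the stretches printed. Windows not printed held some of the same motifs. GTAAACA and TATAAA were each in a window of *Apoe*, and CAAAGNNCA was in that of *Apoa4*. Neither gene passed a comparison between genotypes as deposited. AGGTCA was in a second window of *Apoa2*. The window of *Mttp* lies over the first exons of *Trmt10a* on the other strand, and those of *Apoa4* and *Apom* hold annotated exon up to or next to their 5′ end, so they are not printed.

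The genes differ widely in level. Per kilobase of the longest protein-coding transcript, and averaged over the 12 libraries, *Apoe* came first with 233262 normalized counts, followed by *Apoa2* (185650.0), *Apoa1* (103505), *Apoc1* (81459), *Apoc3* (19293), *Apob* (14218), *Apoa5* (8113), *Apoa4* (2709), *Apom* (2522) and *Mttp* (1846). The ranges of neighbours in this order overlapped over the libraries, except between *Apoa2* and *Apoa1*, *Apoc1* and *Apoc3*, and *Apob* and *Apoa5*. *Apoa4* varied most over the 12 libraries, 6.78 times from lowest to highest, and *Apob* least, 1.22 times.

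**Figure D1:**
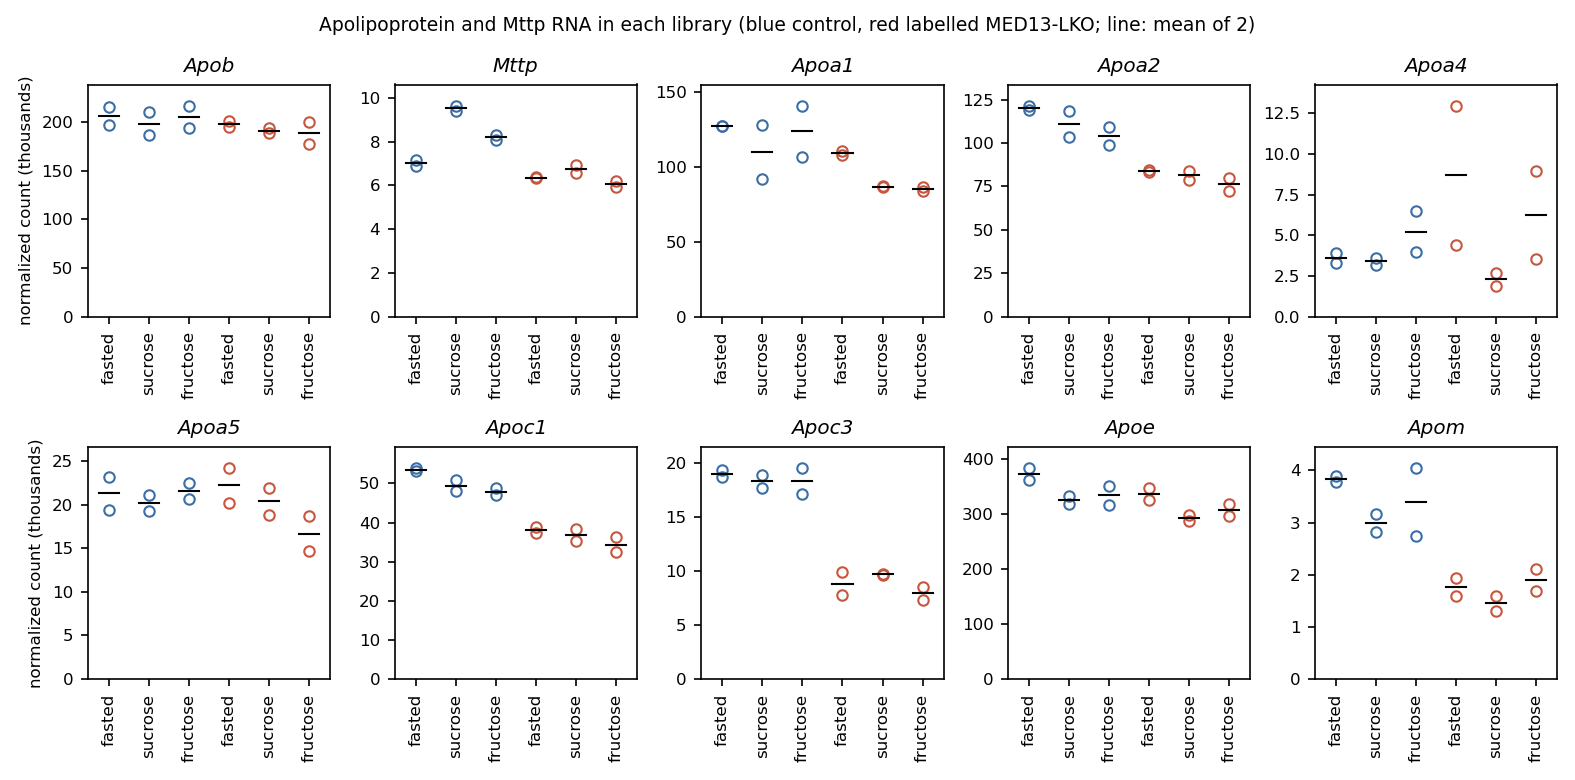
Normalized counts (linear axes from 0) of the 10 genes in each of the 12 libraries, 2 points per group with a line at their mean, control in blue and libraries labelled MED13-LKO in red. *Apoc3*, *Apom*, *Apoa2* and *Apoc1* stand lower in every red library than in any blue one, while *Apob* overlaps throughout.

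The assembly pair was compared first. *Apob*, whose product is the structural backbone of VLDL, had normalized counts of 196619 and 215803 in fasted, 186627 and 210033 in sucrose-fed and 194283 and 217026 in fructose-fed control mice. The libraries labelled MED13-LKO gave 201498 and 195158 when fasted, 188412 and 193602 after sucrose, and 200296 and 177953 after fructose. The groups overlapped in every comparison except sucrose against fasted in the second genotype, and none passed the threshold. The interval of its difference between genotypes ran from -0.24 to 0.08 on the log2 scale (mean of diets), so that a difference of the size seen for *Apoc3* lies outside it.

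*Mttp* was the 1 member called in a feeding comparison with all libraries. In control mice its normalized counts were 6896 and 7162 when fasted, 9643 and 9410.1 after sucrose, and 8067 and 8314 after fructose. All 4 fed control mice were above both fasted ones. *Mttp* rose by 0.44 ± 0.07 (log2 with SE, 1.36-fold) with sucrose, with an adjusted p of 0.0040. It was the 1 call among the 10 members, a share close to that of all genes tested (8.57% called in either direction, 4.85% higher). Fructose gave a log2 difference of 0.22 ± 0.07 that did not pass (adjusted p = 0.0855), and fructose against sucrose gave -0.22 ± 0.07, which did not pass either (adjusted p = 0.43). With the libraries rescaled to equal sums, which moved the median of all genes to 0.11 (sucrose) and 0.12 (fructose), the fructose difference was 0.35 and passed (adjusted p = 0.023). The sucrose call held without each of the 12 libraries in turn.

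In the libraries labelled MED13-LKO, *Mttp* stood at 6318 and 6394 when fasted, 6562 and 6926 after sucrose, and 5914 and 6190.3 after fructose. Sucrose libraries were above and fructose libraries below the fasted ones, and neither difference passed (0.09 ± 0.07, adjusted p = 0.52, and -0.07 ± 0.07, adjusted p = 0.58, or 0.03 for fructose with equal sums). The difference between the genotypes' responses was -0.35 ± 0.09 for sucrose (adjusted p = 0.34) and -0.29 ± 0.09 for fructose (adjusted p = 0.425), in limma over all genes, so that the responses were not shown to differ after adjustment. With both sugars and both genotypes pooled, *Mttp* was higher in fed mice by 0.17 ± 0.04 (adjusted p = 0.016), against 10.7% of genes called higher. That pooled call was lost without control fasted replicate 1 (adjusted p = 0.074), without MED13-LKO fasted replicate 1 (0.059) or without MED13-LKO fasted replicate 2 (0.052).

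**Figure D2:**
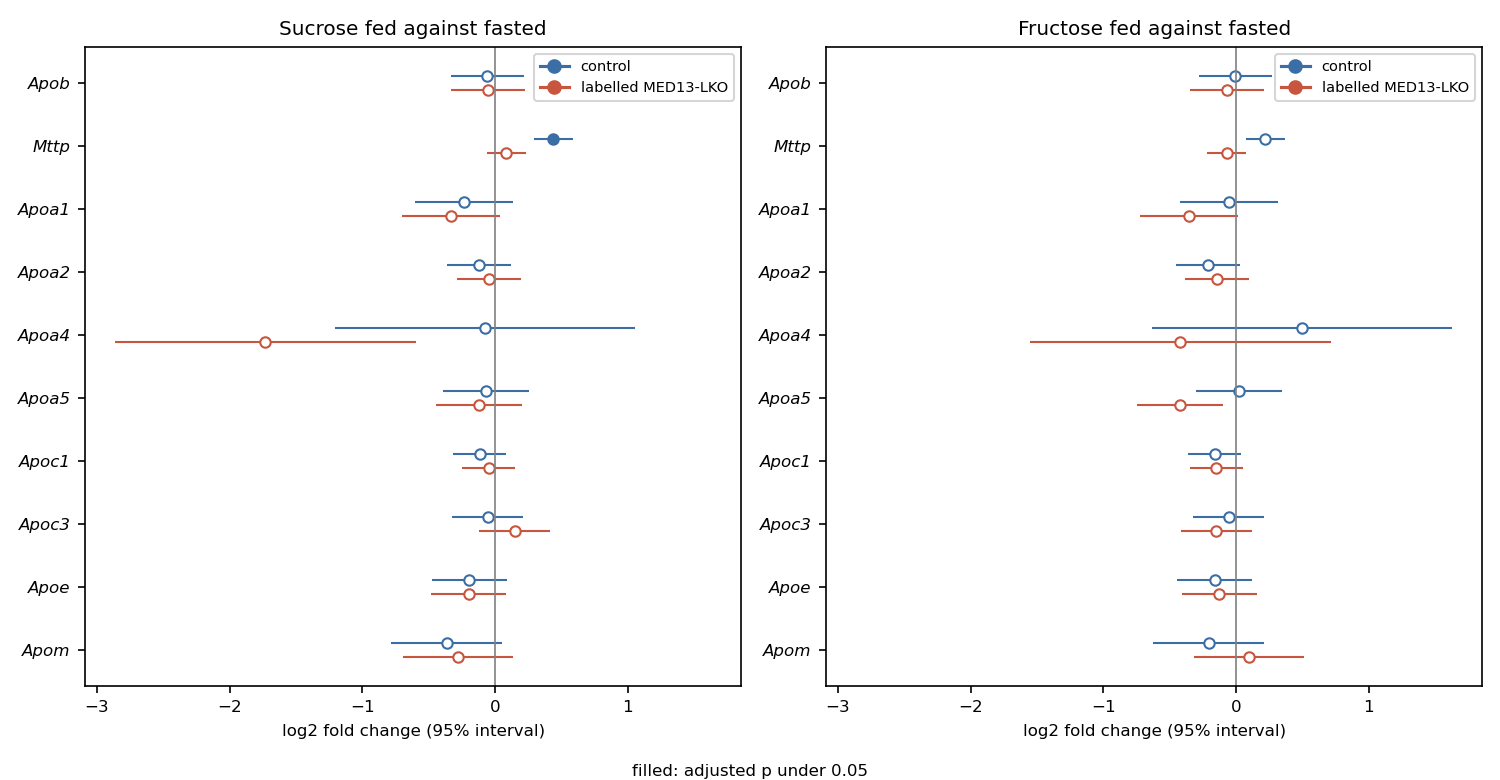
Log2 fold changes with 95% intervals for sucrose (left) and fructose (right) against fasted, in control mice (blue) and in libraries labelled MED13-LKO (red), with filled points at an adjusted p under 0.05. *Mttp* with sucrose in control mice is the single filled point, and the widest intervals belong to *Apoa4*.

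No other member passed in any feeding comparison with all libraries. The pooled difference of *Apoa1*, -0.24 (adjusted p = 0.12), passed without control sucrose replicate 2 (-0.30, adjusted p = 0.033) or control fructose replicate 1 (-0.29, adjusted p = 0.043). In control mice 8.57% of the genes tested were called with sucrose and 5.6% with fructose, while 5.71% and 6.53% were called in the second genotype. The median of the 10 log2 differences lay between -0.06 and -0.15 in these 4 comparisons, beside medians of all genes between -0.02 and 0.00. At an unadjusted p under 0.05 there was 1 member in each of the 4, *Mttp* in control mice with either sugar, and *Apoa4* (sucrose) and *Apoa5* (fructose) in the libraries labelled MED13-LKO, while of all genes 24.6% (sucrose) and 22.9% (fructose) met it in control mice and 20.8% and 23.2% in the second genotype. Fructose against sucrose gave no member call in either genotype, where 0.0404% of genes were called in each and where 1 member in control mice and 3 in the others had an unadjusted p under 0.05, beside 8.58% and 7.69% of all genes.

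*Apoa4*, a triglyceride-associated apolipoprotein that gut and liver both make in mice, varied most between mice of a group. Control mice held 3284 and 3940.1 normalized counts when fasted, 3632 and 3206 after sucrose, and 3954 and 6518 after fructose. MED13-LKO-labelled libraries held 4386 and 12977 when fasted, 2702 and 1913 after sucrose, and 3563 and 8931 after fructose. The fasted pair of the second genotype lay above and its sucrose pair below the matching control pair. Sucrose against fasted gave -1.73 ± 0.51 in these libraries without passing (adjusted p = 0.081), and passed without MED13-LKO fasted replicate 1 (-2.51, adjusted p = 0.033), while without replicate 2 of that group it was -0.95 (adjusted p = 0.41). Of the 31-base subsequences of *Apoa4*, 64.5% also occur in *Gm10680* or *Gm47528* (32.3% in each), which are annotated on the opposite strand and are not in the table, and the same holds for 18.4% of those of *Apoa5* and *Gm47544*.

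*Apoa5*, an activator of triglyceride clearance by lipoprotein lipase, stood at 19452 and 23191 in fasted, 19327 and 21172 in sucrose-fed and 20633 and 22534 in fructose-fed control mice. In the libraries labelled MED13-LKO it was 20188 and 24232, 21929.8 and 18875, and 18682 and 14640.4. The last pair was lower than every other library, with a log2 difference from fasted of -0.42 ± 0.15 (adjusted p = 0.12) and from fructose-fed control mice of -0.38 ± 0.15 (adjusted p = 0.15), neither of which passed. Without MED13-LKO fructose replicate 2 they were -0.24 and -0.21, and the first was -0.29 without MED13-LKO fasted replicate 2.

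More members were called between genotypes than between diets. Fasted, 4 of the 10 members were lower in the libraries labelled MED13-LKO and none higher, where 4.86% of all genes were called lower and 4.12% higher. With sucrose 5 were lower and none higher (3.33% and 2.7% of genes), with fructose likewise 5 and none (3.95% and 3.74%), and averaged over the diets 6 and none (13.2% and 12.1%). The median log2 difference of the 10 was -0.19, -0.43, -0.44 and -0.36 in the same order, beside medians of all genes between 0.00 and 0.01. The mean of diets uses the same libraries as the comparisons within a diet.

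*Apoc3* encodes an inhibitor of lipoprotein lipase and of particle uptake by the liver. Its normalized counts in control mice were 19355 and 18675 when fasted, 18912 and 17686 after sucrose, and 17116 and 19545 after fructose. Their MED13-LKO-labelled counterparts held 9862 and 7765, 9654 and 9735, and 8489 and 7351. Every one of the 6 was below every control library, by a wide gap. The log2 difference of *Apoc3* was -1.12 ± 0.12 (SE) fasted (adjusted p = 0.00058), -0.92 ± 0.12 with sucrose (adjusted p = 0.0023) and -1.21 ± 0.12 with fructose (adjusted p = 0.00038). Averaged over the diets it stood at 0.47 of the control level (-1.08 ± 0.07, adjusted p = 5.8e-06), and its calls held without each of the 12 libraries.

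*Apom* encodes an HDL protein that carries sphingosine-1-phosphate. Control mice held 3893 and 3785 normalized counts when fasted, 2809.7 and 3168 after sucrose, and 4048 and 2732 after fructose, and the libraries labelled MED13-LKO 1589 and 1940.5, 1312 and 1598, and 1678 and 2101. Again all 6 lay below all control libraries. *Apom* differed by -1.13 ± 0.19 fasted (adjusted p = 0.0061), by -1.04 ± 0.19 with sucrose (adjusted p = 0.011), by -0.82 ± 0.19 with fructose (adjusted p = 0.027) and by -0.998 ± 0.11 over the diets (adjusted p = 0.00016). The sucrose call was lost without control sucrose replicate 2 (adjusted p = 0.080) or MED13-LKO sucrose replicate 1 (0.11), and the fructose call without control fructose replicate 1 (-0.54, adjusted p = 0.12) or either fructose library labelled MED13-LKO (0.14 and 0.056).

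*Apoa2* and *Apoc1*, small apolipoproteins of HDL and of HDL and VLDL, shifted less. *Apoa2* had 121497 and 119184 normalized counts in fasted control mice, 103181 and 118342 with sucrose, and 98921 and 109453 with fructose. The libraries labelled MED13-LKO gave 83497 and 84646, 78760.2 and 84006, and 79981 and 72533, all below the lowest control value. Its differences were -0.52 ± 0.11 fasted (adjusted p = 0.018), -0.44 ± 0.11 with sucrose (adjusted p = 0.042), -0.45 ± 0.11 with fructose (adjusted p = 0.034) and -0.47 ± 0.06 over the diets (adjusted p = 0.00059). The calls within a diet were close to the threshold. The fasted one was lost without any 1 of the 4 fasted libraries (adjusted p 0.087 to 0.11), the sucrose one without any 1 library outside the control fructose pair (0.052 to 0.24), and the fructose one without 9 of the 12, namely the 4 fasted, both MED13-LKO sucrose, both MED13-LKO fructose and control fructose replicate 2 (0.055 to 0.20).

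*Apoc1* had 53997 and 53077 normalized counts in fasted control mice, 47996 and 50902 with sucrose, and 47033 and 48817 with fructose. The libraries labelled MED13-LKO gave 38747 and 37289.7, 35269 and 38299.7, and 36232 and 32375, again without overlap. The differences were -0.49 ± 0.09 fasted (adjusted p = 0.0090), -0.43 ± 0.09 with sucrose (adjusted p = 0.023), -0.48 ± 0.09 with fructose (adjusted p = 0.011) and -0.47 ± 0.05 over the diets (adjusted p = 0.00018). The fasted call was lost without either control fasted library or MED13-LKO fasted replicate 2 (adjusted p 0.059 to 0.072), the sucrose call without any 1 sucrose library (0.060 to 0.18), and the fructose call without MED13-LKO fructose replicate 2 (0.093).

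For *Mttp* (values above), the libraries labelled MED13-LKO were below the control libraries within each diet. The difference was -0.15 ± 0.07 fasted, which did not pass (adjusted p = 0.21) and turned to 0.20 with equal sums, -0.50 ± 0.07 with sucrose (adjusted p = 0.0026) and -0.44 ± 0.07 with fructose (adjusted p = 0.0043). Both calls held without each library in turn and were lost with equal sums (-0.21, adjusted p = 0.067, and -0.12, adjusted p = 0.24). The fructose call was also lost with the compared groups fitted alone (adjusted p = 0.11). Over the diets the difference was -0.36 ± 0.04 (adjusted p = 0.00015).

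*Apoa1*, the main protein of HDL, had 127695 and 127295 normalized counts in fasted control mice, 92033 and 127923 with sucrose, and 141129.5 and 106600.3 with fructose. The libraries labelled MED13-LKO gave 110495 and 107891, 86568 and 87239, and 86532 and 84132. They were lower within each diet, and the spread within groups (SD 0.18 on the log2 scale) was exceeded among the members by that of *Apoa4* (0.65) and *Apom* (0.23). No diet passed (-0.22 ± 0.17 fasted, -0.32 ± 0.17 with sucrose, -0.52 ± 0.17 with fructose, adjusted p = 0.44, 0.31 and 0.087), and the mean of diets did (-0.36 ± 0.10, adjusted p = 0.022). That call was lost without either control fasted library, MED13-LKO fasted replicate 2, either MED13-LKO sucrose library or MED13-LKO fructose replicate 2 (adjusted p 0.051 to 0.054), and the fructose difference passed without control sucrose replicate 1 (0.046), control sucrose replicate 2 (0.045) or control fructose replicate 2 (0.031). The fructose difference was -0.32 without control fructose replicate 1 (adjusted p = 0.34), and the sucrose difference -0.56 without control sucrose replicate 1 and -0.08 without control sucrose replicate 2 (adjusted p = 0.11 and 0.86).

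*Apoe*, the ligand by which receptors clear remnant particles, had 362552 and 384340.1 normalized counts in fasted control mice, 318886 and 333426 with sucrose, and 317279 and 350975 with fructose. The libraries labelled MED13-LKO gave 325376 and 347158, 298544 and 286960.5, and 318833 and 296870.0. They were lower when fasted and with sucrose and overlapped with fructose, and the mean of diets did not pass (-0.14 ± 0.07, adjusted p = 0.19).

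**Figure D3:**
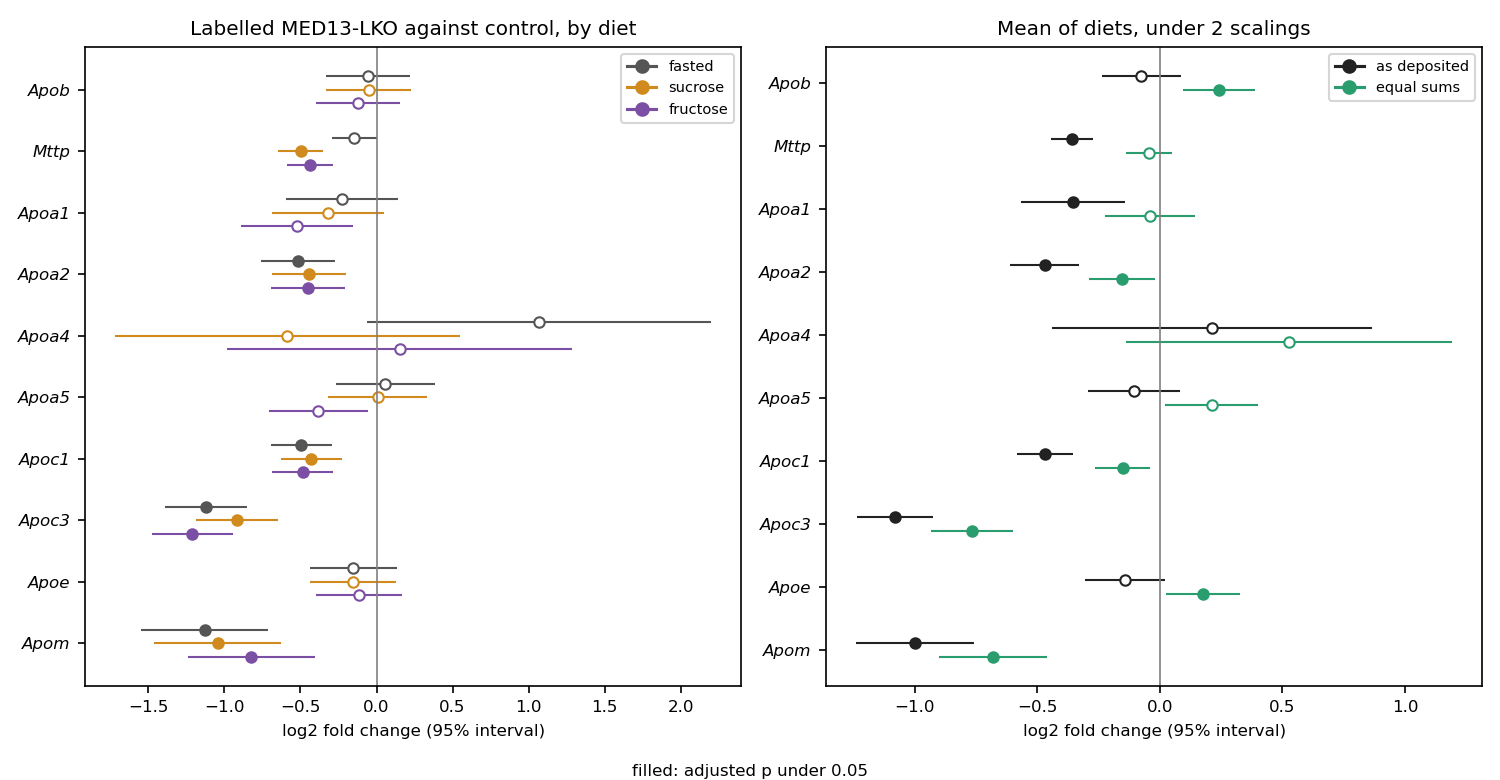
Log2 fold changes of libraries labelled MED13-LKO against control with 95% intervals, for each diet (left) and for the mean of diets under the scaling as deposited and with equal sums (right), with filled points at an adjusted p under 0.05. *Apoc3* and *Apom* lie near -1 as deposited and stay filled below 0 with equal sums, where *Apob* and *Apoe* become filled above 0.

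These differences depend on how the libraries are set to a common scale. With equal sums per library, the median of all genes shifted to 0.32 over the diets (0.35 fasted, 0.28 with sucrose and 0.32 with fructose), and 7121 of 12401 genes were called higher and 405 lower in place of 1493 and 1634 of 12366. On that scale *Apoc3* (-0.77, adjusted p = 5.4e-05), *Apom* (-0.68, adjusted p = 0.00040), *Apoa2* (-0.15, adjusted p = 0.048) and *Apoc1* (-0.15, adjusted p = 0.024) still fell over the diets. *Apob* (0.24, adjusted p = 0.011) and *Apoe* (0.17, adjusted p = 0.046) turned to higher, and *Apoa1* (-0.04, adjusted p = 0.69) and *Mttp* (-0.04, adjusted p = 0.38) did not pass. Equal sums multiply each library by a constant, which moves all genes of a comparison by nearly the same log2 amount. Distances from the median gene are therefore kept by construction and are no check of the differences. They were -1.09 for *Apoc3*, -1.002 for *Apom*, -0.47 for *Apoa2* and *Apoc1*, -0.36 for *Mttp* and *Apoa1*, -0.15 for *Apoe* and -0.08 for *Apob*. With equal sums within the diets, *Apoc3* was called in all 3 and *Apom* fasted and with sucrose, and no other member was. The median of the hepatocyte markers over the diets was -0.44 as deposited and -0.13 with equal sums, beside -0.36 and -0.04 for the 10 members, and its part in their differences was not tested. *Nnt* was chosen after its values were seen because C57BL/6J mice carry a deletion in it. It ran from 529 to 1004 in control libraries and from 2617 to 3687 in the others. Of its 31-base subsequences, 47.1% also occur in a second annotated gene named *Nnt*, and the part of read sharing between them was not tested. Strain background and the *Med13* genotype cannot be told apart here.

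No member passed the test of the difference between genotypes in their response to sucrose, where 0.146% of genes were called, or to fructose (0.0243%). At an unadjusted p under 0.05 there were 2 members for sucrose, *Mttp* and *Apoa4*, and 1 for fructose, *Mttp*, beside 8.53% and 9.46% of all genes.

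Genes that act with these members in assembly were examined as a list. Of 12 genes for VLDL assembly and secretion, none was called with sucrose in control mice (median 0.04), where 8.57% of all genes were. In the libraries labelled MED13-LKO 6 were lower over the diets (median -0.23, beside 0.01 for all genes), where 13.2% of all genes were called lower. With equal sums, where most genes tested were called higher, 1 was lower and 5 were higher. *Aadac*, an esterase linked to VLDL lipid supply, fell by 0.66 on the log2 scale (SE 0.07, adjusted p = 9.3e-05), and remained lower with equal sums (-0.34). *P4hb*, the protein disulfide isomerase that is the partner subunit of MTTP, fell by 0.43 (SE 0.06, adjusted p = 0.00084) and did not pass with equal sums (-0.12). *Sar1b* and *Mia2*, of the transport step out of the endoplasmic reticulum, differed by -0.31 each as deposited and by 0.01 each with equal sums. Of 4 genes of *Apob* mRNA editing, which makes the short B48 form, *Rbm47* was lower (-0.40 ± 0.08, adjusted p = 0.0072; -0.08 with equal sums) and the deaminase *Apobec1* differed by 0.07 ± 0.18 (adjusted p = 0.82). Editing itself is not measured by these gene-level values.

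Of 11 other apolipoproteins and particle proteins, 10 were tested. Over the diets 2 were higher and 5 lower in the libraries labelled MED13-LKO (median -0.17), beside 12.1% and 13.2% of all genes. With equal sums, where most genes tested were called higher, 5 were higher and 3 lower. *Saa4*, a constitutive serum amyloid A of HDL, rose by 0.98 ± 0.09 (adjusted p = 4.2e-05), and its libraries ran from 3476 to 5463 in control mice against 7245 to 14613 otherwise. *Apon* fell by 0.55 on the log2 scale (SE 0.07, adjusted p = 0.00028), with control libraries at 4023 to 4765 and the others at 2499.6 to 3475. *Apoc2*, the activator of lipoprotein lipase, rose and *Apoc4* fell. The directions of these 4 genes were the same with equal sums and with equal 75th percentiles.

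These last genes lie side by side near *Apoc1* and *Apoe* on chromosome 7 of GRCm38, *Apoc2* from 19671579 to 19677941 and *Apoc4* from 19678083 to 19681479, on the minus strand. *Apoc2* had 2273 and 2205 normalized counts in fasted control mice, 2146 and 2143 with sucrose, and 2171 and 2134 with fructose, and 4789 and 4424, 3831 and 3533, and 4488 and 4486 in the libraries labelled MED13-LKO. *Apoc4* had 12433 and 12217, 10340.2 and 11585, and 10426 and 10790.3 against 5562 and 5831, 6337 and 6431, and 5952 and 5432. The genotypes did not overlap in either gene, and the log2 differences were 0.96 ± 0.04 (adjusted p = 4.5e-07) and -0.93 ± 0.05 (adjusted p = 1.1e-06). Of the 31-base subsequences of *Apoc2*, 78.8% also occur in *Gm44805*, an annotated read-through transcript that spans both genes, as do 3.63% of those of *Apoc4*, and the table does not list it. For *Apoc2*, the difference cannot be separated from how the authors' pseudoalignment shared these reads. For *Apoc4*, of which a smaller share is common to both, the part of such sharing was not tested. As deposited, the sum of both genes ran from 12486 to 14706 in control libraries and from 9918 to 10441 in the others. The difference was -0.40 ± 0.04 (adjusted p = 0.00012). The sum was not fitted with equal sums per library. The totals of all normalized values were also lower in the libraries labelled MED13-LKO (17309215 to 18738563, beside 21062211 to 24152885 in control libraries), so a lower sum is not shown on that scale. The plot of *Apoc4* and *Apoc2* by library shows the sum beside its parts.

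**Figure D4:**
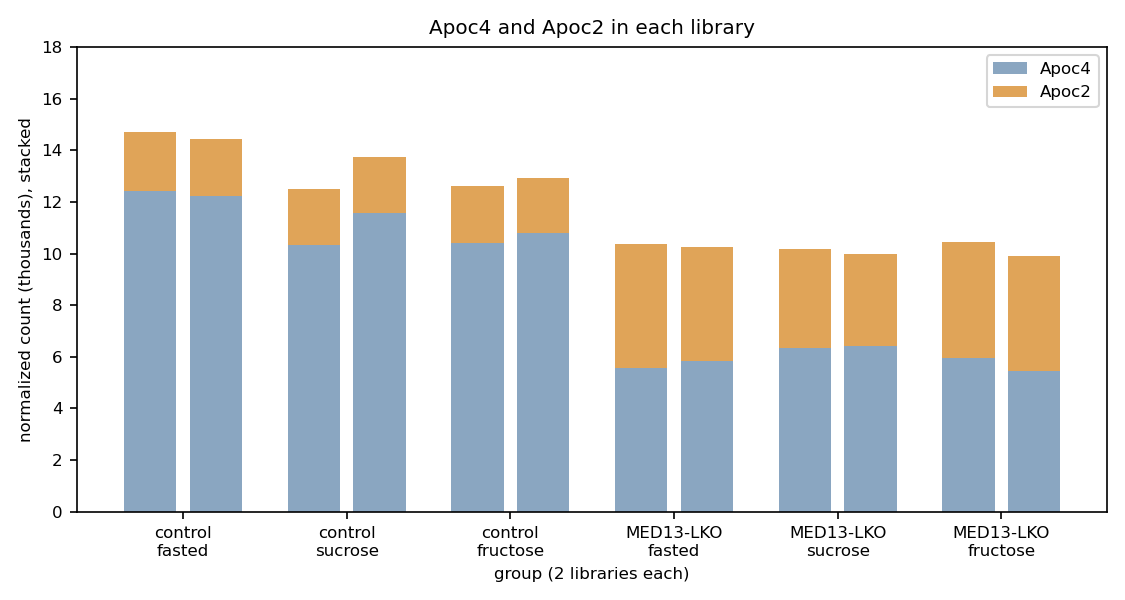
Stacked normalized counts (linear axis from 0) of *Apoc4* (blue) and *Apoc2* (orange) in each of the 12 libraries, 2 bars per group. On the deposited scale, control bars are taller in total and mostly *Apoc4*. In bars labelled MED13-LKO the *Apoc2* part is larger and the *Apoc4* part smaller.

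A cluster on chromosome 9 holds 4 of the members, *Apoa1* (46228580 to 46230466), *Apoc3* (46232933 to 46235636, on the opposite strand), *Apoa4* (46240696 to 46243459) and *Apoa5* (46268633 to 46271919). Over the diets they differed between genotypes by -0.36, -1.08, 0.21 and -0.11. Of the protein-coding neighbours within 50 kb of them, *Zpr1* was lower (-0.57, adjusted p = 0.0011) and *Sik3* (-0.04) and *Bud13* (-0.20) did not pass. In the cluster of *Apoe* (19696109 to 19699188) and *Apoc1* (19689481 to 19692660) on chromosome 7, *Tomm40* (-0.12), *Clptm1* (-0.08) and *Nectin2* (0.31) did not pass. Beside *Apoa2* on chromosome 1 (171225054 to 171226379), *Nr1i3*, the nuclear receptor CAR, was lower (-0.90, adjusted p = 0.0064) as was *Pcp4l1* (-0.78, adjusted p = 0.021, 0.066 with equal sums). Beside *Apom* on chromosome 17 (35128997 to 35132050), *D17H6S53E* was higher (0.54, adjusted p = 0.043). *Apob* (chromosome 12, 7977648 to 8016835) had no annotated protein-coding neighbour within that distance, and *Mttp* (chromosome 3, 138089854 to 138144968) overlaps the start of *Trmt10a* (-0.03, adjusted p = 0.91), with which it shares 6.43% of its 31-base subsequences.

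**Figure D5:**
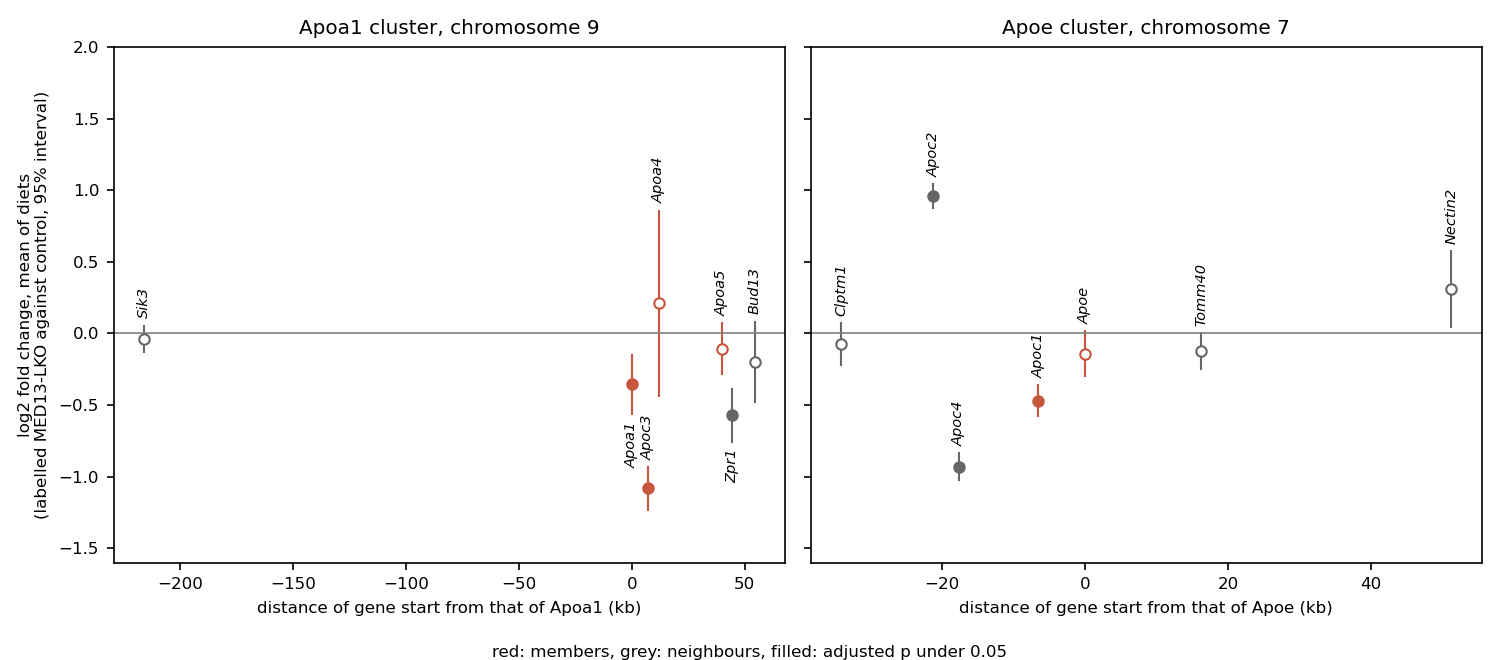
Log2 fold change over the diets (libraries labelled MED13-LKO against control, 95% interval) of tested protein-coding genes by the distance of their start, in kilobases along the chromosome, from that of *Apoa1* (left) or *Apoe* (right), members in red and neighbours in grey, filled at an adjusted p under 0.05. *Apoc3* lies at -1.08 a few kilobases from *Apoa1*, and *Apoc2* and *Apoc4* lie on opposite sides of 0.

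Lipoprotein remodelling and uptake genes were examined as further lists. Of 11 remodelling genes, *Angptl8*, a feeding-induced inhibitor of lipoprotein lipase, rose with sucrose in control mice by 3.99 ± 0.25 (adjusted p = 9.5e-05) and *Angptl4*, its fasting-induced counterpart, fell by 3.54 on the log2 scale (SE 0.50, adjusted p = 0.0027). No other gene of the list was called there, where 4.85% of all genes were called higher and 3.72% lower. Between genotypes *Lpl* was higher (0.76 ± 0.13, adjusted p = 0.0022) and *Abca1* lower (-0.26 ± 0.08, adjusted p = 0.047, turning to 0.06 with equal sums). Over the diets, 12.1% of all genes were called higher and 13.2% lower. Of the uptake genes, *Lsr* rose with sucrose in control mice (0.76 ± 0.09, adjusted p = 0.00083) and *Scarb1*, the HDL receptor, fell by 0.54 (SE 0.08, adjusted p = 0.0038).

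Of 22 transcription factors known to act on apolipoprotein genes, 7 were higher and 3 lower with sucrose in control mice, where 4.85% of all genes were called higher and 3.72% lower, and of the 10 members *Mttp* was called. *Cebpa* (0.93 ± 0.10, adjusted p = 0.00075), *Foxa2* (1.80 ± 0.24, adjusted p = 0.0018), *Srebf1* (1.91 ± 0.27, adjusted p = 0.0027) and *Nr1h4* (0.66 ± 0.11, adjusted p = 0.0073) rose. Between genotypes 2 were higher and 7 lower over the diets, beside 12.1% and 13.2% of all genes. With equal sums, where most genes tested were called higher, 11 were higher and 1 lower. *Nr1h4*, the bile acid receptor, gave -0.40 ± 0.06 (adjusted p = 0.0017, -0.09 with equal sums), *Nr1d1*, a clock repressor, gave -0.80 ± 0.15 (adjusted p = 0.0045, -0.48 with equal sums), and *Mlxipl*, which encodes ChREBP, -0.30 ± 0.08 (adjusted p = 0.017, turning to 0.02 with equal sums).

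The genes whose centred log2 values lay closest to those of a member over the 12 libraries were found for the 3 members with the widest range of group means. Closest to *Apoc3* were *Pigr* (root mean square difference 0.12), *Apoc4* (0.15) and *Hsd17b10* (0.16), beside a standard deviation of 0.58 for *Apoc3*. Closest to *Apom* (standard deviation 0.57) were *Eif3e* (0.18), *Ybx3* (0.19) and *Nme1* (0.20). For *Apoa4* (standard deviation 0.76) the closest, *Tanc2* (0.45), *Trpm2* (0.46) and *Spsb1* (0.46), lay farther away.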

How the data were processed

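Liver RNA-seq libraries from 12 mice (2 per group) were analysed. The authors deposited a table of normalized counts per gene (a signal, not raw counts): reads were trimmed with Trim Galore 0.6.5, transcript counts were estimated with kallisto 0.46.0 and normalized with DESeq2 1.24.0 (versions and the build mm10 from the submitters' processing notes). The transcript annotation is not given in the sources used here. The values are not whole reads, so no count test was run and depth is unknown.

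Log2(normalized count + 1) was fitted in limma 3.58.1 (R 4.3.3) with a mean for each of 6 groups over the 12366 genes whose mean reached 10, with a trended empirical Bayes prior, and p-values were adjusted by Benjamini-Hochberg over all genes tested. A gene is called at an adjusted p under 0.05. Fold changes are on the log2(value + 1) scale and understate changes of low genes. The labels give no source for the mice beyond separate samples, so p-values measure the spread between these samples. Groups and replicate numbers came from the sample titles. Of the identifiers, 16212 of 16346 were found in GENCODE M21 (GRCm38), which gave positions, lengths and shared 31-base subsequences. Promoter windows came from RefSeq.

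The members and lists were chosen with earlier results of these data known. Named were all members, at most 4 genes per list with the smallest adjusted p in the comparison described (a list may name fewer), the 3 genes most like each of the 3 most variable members, and protein-coding neighbours within 50 kb. *Nnt* was added after its values were seen. Some genes of the uptake list, and the counts over that list, are not reported here. Alternatives were pseudocounts of 0.1 and 10, no filter, equal 75th percentiles, equal sums, a block by replicate number, the compared groups fitted alone, leaving out each library, and the median transcript length per gene. The fit was tested on simulated data. Figures used Python 3.11.15 and matplotlib 3.10.9.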

Additional observations from a re-analysis of the deposited data

Results flagged for a closer look

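For *Mttp*, every fructose-fed control mouse was above, and every fructose-fed library labelled MED13-LKO below, both fasted libraries of its genotype. The log2 differences were 0.22 and -0.07 (0.35 and 0.03 with equal sums over the libraries), and their difference was -0.29 ± 0.09 (SE, adjusted p = 0.425 in limma), which did not pass.

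For *Apoa4*, both fasted libraries labelled MED13-LKO were above (1.07) and both sucrose-fed ones below (-0.59) the control libraries of the same diet. The difference of these differences was -1.65 ± 0.72 (SE, adjusted p = 0.57 in limma), which did not pass. These values rest on single libraries. Without MED13-LKO fasted replicate 2 the fasted difference was 0.29 and the difference of differences -0.87, and without replicate 1 of that group they were 1.85 and -2.44. The sucrose difference was -0.34 without MED13-LKO sucrose replicate 2.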

How the results depend on the processing

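Of 890 fold changes of members recomputed under the alternatives other than leaving out a library, 865 kept their direction and side of the threshold or changed sign without a call (32 of them), 22 lost a call, 1 gained one and 2 reversed. Equal sums over the libraries reversed *Apob* (0.24) and *Apoe* (0.17) over the diets. With equal sums the number of members called in the comparison of genotypes was 2 fasted, 2 with sucrose and 1 with fructose, and for fructose against fasted in control mice 1. Fitting the compared groups alone left 3 members called with sucrose and 1 with fructose, from fewer residual degrees of freedom. Over all genes, the comparison of genotypes called 1110 fasted, 746 with sucrose and 951 with fructose, against 4146, 2242 and 3465 with equal sums, and 167 with fructose from the compared groups alone. For fructose against fasted, the compared groups alone called 47 in place of 692 in control mice and 478 in place of 807 in the libraries labelled MED13-LKO. *Apoa2* within a diet also lost its call without the filter (adjusted p = 0.070 with sucrose and 0.060 with fructose) and with equal 75th percentiles (0.057 with sucrose). Summing *Apoc2* with *Apoc4* on the deposited scale, chosen after seeing the data, gave -0.40 in place of 0.96 for *Apoc2*. With the median transcript length, *Apoa5* ranked ahead of *Apoc3* and *Apob* per kilobase. The cause of these changes was not tested.

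Leaving out 1 library at a time, the members called ranged from 2 to 4 fasted, 2 to 5 with sucrose, 2 to 6 with fructose and 5 to 6 over the diets between genotypes, from 0 to 1 for sucrose against fasted in the libraries labelled MED13-LKO, and from 0 to 2 for the pooled feeding comparison. A group left with 1 library is assumed to vary like the others. The share of all genes called in these fits is not given here, so a change among the members cannot be told from a change over all genes.

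Libraries with the same replicate number did not deviate together (correlations over genes between -0.14 and 0.08 over 15 pairs of groups), so the numbers are taken as names only. With the replicate number as a block, *Apoa2* lost its call with sucrose (adjusted p = 0.065) and fructose (adjusted p = 0.052), 4 members were called with each sugar between genotypes, and no other call of a member changed. The share of all genes called with that block is not given here.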
